A study of Mus musculus with 4 samples.

Results

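Chromatin modifying and remodelling enzymes were examined as 1 group of genes in 3T3L1 cells treated with Nutlin-3a. Members were chosen by gene symbol: the lysine demethylase (Kdm), histone deacetylase (Hdac), SWI/SNF-related (Smarc), Ezh, bromodomain (Brd), inhibitor of growth (Ing), Dnmt3, Tet, Setd, lysine acetyltransferase (Kat), Kmt2 and chromodomain helicase (Chd) families. The symbols picked out 94 of the 16709 symbols in the authors' table. Of these, 92 were protein-coding genes, and the other two, Chd3os and Smarca5-ps, were an antisense transcript and a pseudogene. 3T3L1 is a line of mouse fibroblast-like preadipocytes, able to form adipocytes in culture. Cells received 25 µM Nutlin-3a, dissolved in DMSO, or the same amount of DMSO alone, for 24 h. Nutlin-3a blocks the p53-binding pocket of MDM2, so that p53 is no longer held and degraded by this ligase. The 4 libraries were 2 biological replicates for each treatment, and both groups were the same unmodified line in the same medium.

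DNA in the nucleus is wrapped around histones, and the enzymes described here decide how open that packing is. Writers add methyl or acetyl groups to histones or DNA, erasers take them off, readers bind the marked residues, and remodellers use ATP to slide or evict nucleosomes. Enzymes of these families are known to hold fat cell genes closed or open in preadipocytes, and p53 is known to work through acetyltransferases and repressive complexes of the same families at its target genes.

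Levels were given by the authors in FPKM, which counts fragments relative to transcript length and to sequencing depth, as a single value for each transcript in each group. No spread between replicates can be derived from them, so "higher" and "lower" compare 2 group values and no test was made. The depth of the libraries is unknown from the table. FPKM was summed over the transcripts of a symbol, and log2 ratios are of Nutlin-3a over DMSO on a log2(FPKM + 1) scale, while folds are plain ratios of FPKM. In pairs written as 1 value against another, the value in Nutlin-3a comes first. Genes were compared with a mean of at least 1 FPKM over both groups, and a difference was called at 2-fold on the log2(FPKM + 1) scale. Cdkn1a, a p53 target, had 386 against 35.2 FPKM. Mdm2, another target and the protein that Nutlin-3a binds, was listed at 0 against 773 FPKM, the opposite direction for a gene that p53 induces. A listed 0 need not mean that the transcript was absent, and the reason for it was not tested. All 9 preadipocyte and fibroblast markers had a mean of at least 1 FPKM. Their summed level was 2291 FPKM in Nutlin-3a and 5155 in DMSO, and its part in the results below was not tested. Vim made up most of that sum, with 1181 against 3169 FPKM, and 7 of the 9 markers were below their DMSO level, while Dlk1 (623 against 513) and Zfp423 (2.91 against 1.82) were above it. Of 17 markers of adipocytes, leukocytes, epithelium, endothelium and muscle, 15 were listed, and Cd68 (6.52 against 2.91 FPKM) and Des (4.15 against 4.90) were those with a mean of at least 1.

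Most chromatin genes lay close to their DMSO level, and the members past the 2-fold limit all lay lower in Nutlin-3a. Of 80 members compared, 7 were at least 2-fold lower, or 8.75%, beside 6.14% of the 10331 genes compared. No member was at least 2-fold higher, beside 6.62% of all genes. With a 1.5-fold limit, 15 members were lower and 10 higher, while 15.2% and 17.8% of all genes were. The median log2 ratio was 0.00 over the members and 0.07 over all genes, with 39 members above 0 and 41 below, beside 5660 and 4671 of all genes. The 7 lower members were the remodeller genes Chd3, Smarca1, Smarcd3 and Smarcb1, the methyltransferase genes Setd6 and Setd4, and the deacetylase gene Hdac5. Smarcb1 and Hdac5 lay at the limit itself, with log2 ratios of -1.002 and -1.003, and inside it with -0.97 each when both columns were scaled to the same upper quartile.

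**Figure D1:**
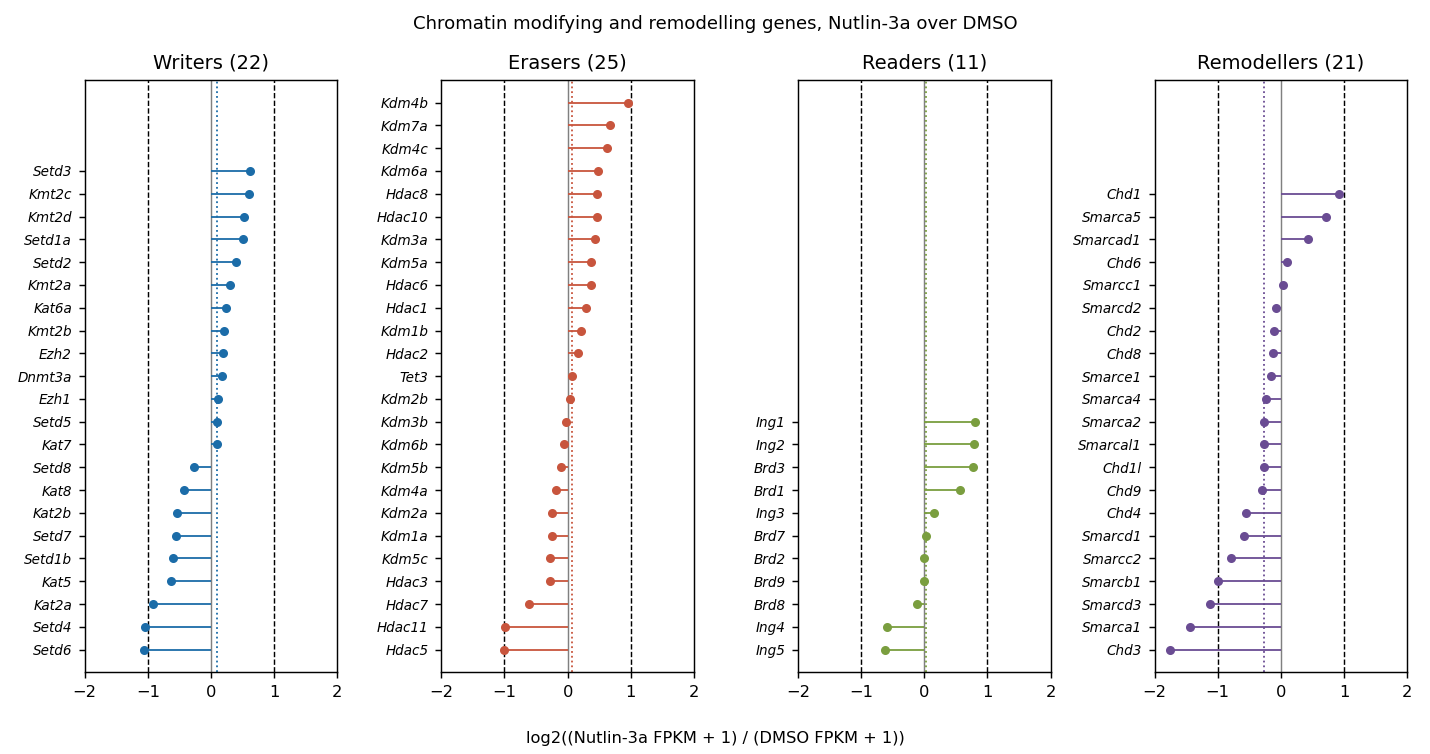
Log2 ratio of Nutlin-3a over DMSO, on the log2(FPKM + 1) scale, for 79 of the 80 members compared, by role. Each point is 1 gene and the authors' single value per group, the dashed lines mark 2-fold, and the dotted line marks the median of the role over all its members compared; the remodellers reach from -1.75 to 0.92 and hold 4 of the 7 genes left of the lower dashed line.

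By role, the remodellers had the lowest median. It was -0.27 over 21 genes, of which 16 lay below 0 and 4 (19.0%) were at least 2-fold lower. Over all genes, 4671 of 10331 lay below 0 and 6.14% were at least 2-fold lower. Writers had a median of 0.10 over 22 genes, with 2 (9.09%) at least 2-fold lower. Erasers had 0.07 over 25 genes, with 1 (4%) lower. The 12 readers had a median of 0.03, and all of them lay within 2-fold. The remodeller median stayed below 0 under each of the 9 other settings of scaling, filter, pseudocount, GC content and transcript choice, between -0.41 and -0.13. The writer median was -0.42 with a mean of at least 5 FPKM, on the other side of 0. The medians of erasers and readers were too near 0 for a direction, and that of readers was -0.04 after centring on all genes.

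Levels of the members spanned a wide range in both groups. The most abundant in DMSO was Smarcb1 with 77.2 FPKM, followed by Hdac3 with 72.8 and Hdac2 with 57.8. In Nutlin-3a the order at the top was Hdac2 with 64.9, Hdac3 with 59.7 and Smarcd2 with 46.7 FPKM. The 80 members together came to 903.3 FPKM in Nutlin-3a and 1008 in DMSO. The sum of the remodellers was 237.3 against 324.8 FPKM, that of the readers 199.99 against 184.7, that of the erasers 308.2 against 323.8 and that of the writers 157.8 against 174.9.

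**Figure D2:**
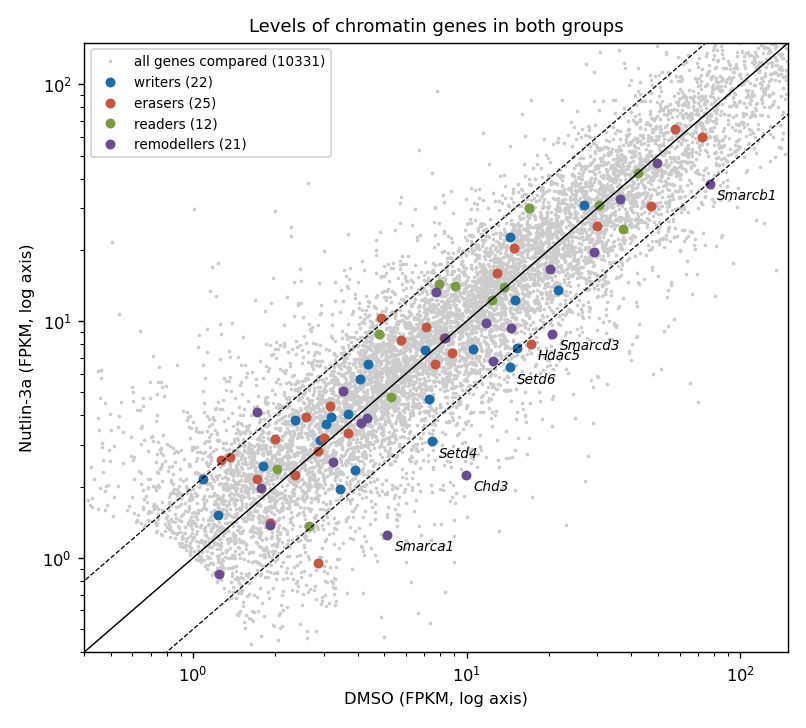
FPKM in DMSO and in Nutlin-3a, both on log axes, for all 10331 genes compared (grey) and for the chromatin genes by role. The solid line marks equal levels and the dashed lines a plain 2-fold ratio; the 7 named genes lay at or below the lower dashed line and ranged from 5.12 to 77.2 FPKM in DMSO.

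The SWI/SNF complexes, which evict and slide nucleosomes at promoters and enhancers, had log2 ratios below 0 for most of their subunits in the Smarc family. Of 9 such subunits, 8 lay below 0 (9 after centring or quantile normalization, and 7 after the GC correction, when Smarcd2 lay at 0.12), and the median log2 ratio was -0.27. Under the other settings that median was between -0.58 and -0.22. Over all genes, 4671 of 10331 lay below 0. Subunits with other names did not share this direction. Of 14 such SWI/SNF partner subunits compared, 7 lay above 0 and 7 below, with a median of 0.04, and Brd7 and Brd9 lay at 0.03 and -0.004. Smarcb1, a core subunit present in most forms of the complex, had 38.1 FPKM in Nutlin-3a and 77.2 in DMSO, a 2.03-fold lower value. Smarcd3, a subunit that ties the complex to tissue-specific transcription factors, had 8.85 FPKM in Nutlin-3a and 20.6 in DMSO and was 2.32-fold lower. Smarcc2, a scaffold subunit, had 6.78 against 12.4 FPKM, a log2 ratio of -0.79 and thus within the limit. Smarcd1 had 9.36 against 14.5 FPKM and a log2 ratio of -0.58.

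The catalytic ATPases of the same complexes differed less. Smarca4, which encodes BRG1, had 9.83 FPKM in Nutlin-3a and 11.7 in DMSO, and Smarca2, which encodes the alternative ATPase BRM, had 16.6 and 20.1. Smarce1, a DNA-binding subunit, had 32.7 against 36.5 FPKM, and Smarcd2 had 46.7 against 49.5. Smarcc1, the paralog of Smarcc2, was the subunit above 0, with 8.50 against 8.33 FPKM, and lay at -0.04 after centring on all genes. Of the paralogs that occupy the same position, those of the Smarcd and Smarcc groups took other shares of their summed FPKM in each treatment. Smarcd3 made up 13.6% of the Smarcd sum in Nutlin-3a and 24.3% in DMSO, while Smarcd2 made up 71.9% and 58.5%. Smarcc2 made up 44.4% of the Smarcc sum in Nutlin-3a and 59.9% in DMSO. The ATPase pair kept nearly the same shares, with Smarca2 at 62.8% of their sum in Nutlin-3a and 63.2% in DMSO.

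Promoters of some lower members are shown to place these genes on the genome and to let their sequence be read beside the values. RefSeq's GRCm38.p6 table had promoters for 72 of the 92 protein-coding members. Of the lower members, 6 had a promoter there and Chd3 had none. Those of Hdac5 and Smarca1 are not printed. Given below are the 250 bases before the annotated start of 2 SWI/SNF subunits and of the 2 lower methyltransferase genes. Capitals mark a CCAAT box (CCAAT), a cell cycle homology region (TTTGAA or TTCGAA) or an E2F-type motif (TTCCCGC or TTGGCGC), each searched on both strands.
Smarcb1 (chr10:75921615-75921864, minus strand): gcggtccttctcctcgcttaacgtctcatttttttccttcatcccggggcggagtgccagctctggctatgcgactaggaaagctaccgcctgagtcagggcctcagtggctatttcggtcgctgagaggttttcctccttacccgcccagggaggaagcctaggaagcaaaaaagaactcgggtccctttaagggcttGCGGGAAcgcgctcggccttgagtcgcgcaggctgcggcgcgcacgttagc
Smarcd3 (chr5:24602003-24602252, minus strand): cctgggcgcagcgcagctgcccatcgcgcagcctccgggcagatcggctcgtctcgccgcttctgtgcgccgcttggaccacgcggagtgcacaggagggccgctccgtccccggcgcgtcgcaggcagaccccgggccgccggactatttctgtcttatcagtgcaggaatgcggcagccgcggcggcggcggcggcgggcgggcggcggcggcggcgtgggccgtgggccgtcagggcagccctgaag
Setd4 (chr16:93603816-93604065, minus strand): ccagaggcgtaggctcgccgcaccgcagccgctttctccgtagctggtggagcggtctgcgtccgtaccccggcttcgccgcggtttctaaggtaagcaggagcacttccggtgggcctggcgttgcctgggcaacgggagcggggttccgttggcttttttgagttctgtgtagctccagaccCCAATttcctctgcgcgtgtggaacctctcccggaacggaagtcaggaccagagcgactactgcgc
Setd6 (chr8:95715663-95715912, plus strand): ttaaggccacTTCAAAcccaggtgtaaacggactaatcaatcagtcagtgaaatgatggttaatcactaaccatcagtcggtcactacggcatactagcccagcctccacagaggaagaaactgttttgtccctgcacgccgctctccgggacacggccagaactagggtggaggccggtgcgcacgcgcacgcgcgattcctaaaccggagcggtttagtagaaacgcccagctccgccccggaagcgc

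Each motif type was also found in a share of all 32851 promoters of that length. A CCAAT box was in 33.8% of all promoters, in 35.7% of the 10129 promoters of genes compared and in 34.0% of the 103 promoters of members. For a cell cycle homology region these shares were 17.1%, 11.99% and 12.6%. An E2F-type motif was in 5.62% of all promoters and 10.2% of those of genes compared, beside 5 promoters of members, or 4.85%. Smarcb1 had 1 E2F-type motif, Setd4 had 1 CCAAT box, Setd6 had 1 cell cycle homology region, and Smarcd3 had none of the 3 types, so no motifs overlapped in these windows. Of the promoters not printed, that of Hdac5 had 2 CCAAT boxes and that of Smarca1 had 1. A CCAAT box was thus in 3 of the 6 promoters of lower members. A pair of p53 core letters with the spacing of a full site (CATG and CATG with 6 bases between them, the same on both strands) was in 3 promoters of members (2 overlapping ones of Kdm2b and 1 of Setd5), in 0.490% of all and in 0.247% of those of genes compared. Kdm2b and Setd5 lay near their DMSO level, with log2 ratios of 0.03 and 0.09. Promoters of members were rich in CpG, with a median of 21 CpG per window beside 16 in promoters of all genes compared.

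The ISWI remodellers, which space nucleosomes evenly, have a pair of alternative ATPases, and these went opposite ways. Smarca1, which encodes SNF2L, had 1.25 FPKM in Nutlin-3a and 5.12 in DMSO and was 4.09-fold lower. Smarca5, which encodes SNF2H, had 13.3 FPKM in Nutlin-3a and 7.75 in DMSO, a 1.72-fold higher value within the limit. Smarca1 held 39.8% of their summed FPKM in DMSO and 8.60% in Nutlin-3a, while the sum itself was 12.9 FPKM in DMSO and 14.6 in Nutlin-3a. Of the SNF2-type helicases outside these complexes, Smarcad1, which acts in DNA end resection and heterochromatin upkeep, had 5.08 against 3.54 FPKM. Smarcal1, which re-anneals DNA at stalled forks, had 2.53 against 3.25.

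Chromodomain helicases showed the lowest and the highest ratio among all remodellers. Chd3, an ATPase of the NuRD complex that couples remodelling with histone deacetylation, had 2.24 FPKM in Nutlin-3a and 9.92 in DMSO. It was 4.43-fold lower, with a log2 ratio of -1.75, the lowest of the 80 members compared. Its paralog Chd4, the main NuRD ATPase, had 19.6 FPKM in Nutlin-3a and 29.2 in DMSO, a log2 ratio of -0.55. Chd3 made up 25.4% of the Chd3 and Chd4 sum in DMSO and 10.3% in Nutlin-3a. Chd1, which binds the promoter mark of methylated lysine 4 of histone H3, lay highest with 4.12 against 1.71 FPKM, a 2.42-fold higher value with a log2 ratio of 0.92.

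The other chromodomain helicases lay nearer 0 in their summed FPKM. Chd2 had 3.70 FPKM in Nutlin-3a and 4.10 in DMSO, and Chd8, which restrains beta-catenin and p53, had 3.90 and 4.33. Chd9 had 1.38 against 1.91 FPKM, Chd1l 0.859 against 1.24, and Chd6 1.97 against 1.76. The Chd6 sum joined transcripts that lay far apart, at 1.96 against 0.562 and 0.00334 against 1.203 FPKM, and its log2 ratio ranged from -0.05 to 0.92 over the settings. Chd5 and Chd7 were under the minimum mean, with 0.593 against 0.214 FPKM for Chd5 and 0.0218 FPKM for Chd7 in Nutlin-3a, which was listed at 0 in DMSO.

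Among the writers, the family medians of the Kat and Kmt2 genes lay on opposite sides of 0, a difference that was not tested. All genes compared of both families lay within 2-fold. The families also differed in length, with a median of 15718.5 bases for the longest annotated transcript of Kmt2 genes and 3414.5 for Kat genes. The part of length in their ratios was not tested. The Kat genes, which encode histone acetyltransferases, had a median log2 ratio of -0.48 over 6 genes, and it was between -0.59 and -0.32 under the other settings. Kat2a, the acetyltransferase GCN5 of the SAGA complex, had 7.66 FPKM in Nutlin-3a and 15.3 in DMSO, a log2 ratio of -0.91. Kat2b, its paralog PCAF, had 4.69 against 7.29 FPKM. Kat5, which encodes TIP60, an acetyltransferase of histone H4 and of p53, had 13.5 against 21.5 FPKM. Kat8, the H4 acetyltransferase MOF, had 7.66 against 10.6. The remaining members of the MYST class were above 0, with 3.96 against 3.18 FPKM for Kat6a and 3.15 against 2.90 for Kat7, which lay at -0.02 after quantile normalization. Kat6b, under the minimum mean, had 0.725 against 1.15 FPKM.

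Kmt2 genes encode large methyltransferases of lysine 4 on histone H3, a mark of promoters and enhancers. All 4 that were compared lay above 0, with a median of 0.41 that ranged from 0.18 to 0.55 under the other settings that left any of them. Kmt2c, an enhancer methyltransferase, had 2.15 FPKM in Nutlin-3a and 1.08 in DMSO and was 1.98-fold higher on the plain scale. Kmt2d, its paralog, had 3.84 against 2.35 FPKM. Kmt2a had 2.45 against 1.80 FPKM and Kmt2b 3.67 against 3.06, while Kmt2e was under the minimum mean at 0.575 against 0.535. These levels were low, and none of the 4 reached a mean of 5 FPKM.

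Setd genes, named for the SET domain of methyltransferases, spread over both sides. Setd6, which methylates the NF-kappaB subunit RelA, had 6.37 FPKM in Nutlin-3a and 14.4 in DMSO and was 2.25-fold lower. Setd4 had 3.11 against 7.47 FPKM and was 2.40-fold lower. At the other end Setd3, which methylates a histidine of actin, had 22.8 FPKM in Nutlin-3a and 14.4 in DMSO, a log2 ratio of 0.62. Setd1a and Setd1b, alternative catalytic subunits for lysine 4 of histone H3, went opposite ways. Setd1a had 6.58 against 4.36 FPKM and Setd1b 1.95 against 3.45. Setd2, which trimethylates lysine 36 of histone H3 behind RNA polymerase, had 5.70 against 4.06 FPKM.

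Remaining Setd and other methyltransferase genes lay within 2-fold as well. Setd7, a monomethyltransferase known to modify p53, had 2.35 FPKM in Nutlin-3a and 3.90 in DMSO. Setd8, which monomethylates lysine 20 of histone H4 and also p53, had 12.2 and 15.0 FPKM. Setd5 had 7.55 against 7.01 FPKM. The Polycomb methyltransferases of lysine 27 on histone H3, Ezh2 and Ezh1, had 30.9 against 26.9 and 4.04 against 3.68 FPKM. Of the de novo DNA methyltransferase family, Dnmt3a had 1.52 against 1.23 FPKM. Dnmt3b (0.112 against 0.255) and the cofactor gene Dnmt3l (0.295 against 0.533) were under the minimum mean.

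Among the erasers, 1 of 9 histone deacetylase genes compared (11.1%), Hdac5, was past the limit, on the lower side, beside 6.14% of all genes. The class IIa genes Hdac5 and Hdac7, whose products shuttle between nucleus and cytoplasm and hold MEF2 factors in check, both lay below 0. Hdac5 had 8.04 FPKM in Nutlin-3a and 17.1 in DMSO, a 2.13-fold lower value, and Hdac7 had 30.6 and 47.0, a log2 ratio of -0.60. Hdac4, of the same class, went the other way with 1.47 FPKM in Nutlin-3a and 0.123 in DMSO. Its mean was under the minimum, so it was not counted, and without that filter it is the member past the limit on the higher side (log2 ratio 1.14). The sum of the class was 40.1 against 64.3 FPKM, of which Hdac4 made up 3.66% in Nutlin-3a and 0.191% in DMSO. Hdac9 had 0.0196 against 0.0186 FPKM. Hdac11, the single class IV gene, had 0.949 FPKM in Nutlin-3a and 2.86 in DMSO. It was 3.01-fold lower on the plain scale, and with a log2 ratio of -0.99 it was the nearest member inside the limit.

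Class I deacetylases include Hdac1 and Hdac2, catalytic subunits of NuRD, SIN3 and CoREST complexes. The summed level of the class was 144.5 against 146.0 FPKM, with 3 genes above 0 and Hdac3 below. Hdac2 had 64.9 against 57.8 FPKM, Hdac3, the NCoR subunit, 59.7 against 72.8 and Hdac1 15.9 against 12.9. Hdac8 had 3.95 against 2.58. The class IIb genes were above 0, with 9.42 against 7.08 FPKM for Hdac6, a tubulin deacetylase, and 8.32 against 5.76 for Hdac10, a polyamine deacetylase.

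All 15 lysine demethylase genes compared lay within 2-fold on the log2(FPKM + 1) scale, and the group for lysine 9 of histone H3 reached from -0.18 to 0.95. Kdm4b lay highest of all 80 members, with 10.4 FPKM in Nutlin-3a and 4.86 in DMSO, a 2.13-fold higher value and a log2 ratio of 0.95. Its listed transcript carried the class code j, which in Cufflinks-style tables marks a form that shares a splice junction with an annotated transcript without matching it. Kdm4c had 2.66 against 1.37 FPKM in sum and 1.29 against 1.32 in its main transcript, and Kdm3a, a hypoxia-induced demethylase of lysine 9 that also acts in fat tissue, 20.5 against 14.9. Kdm4a had 6.60 against 7.64 FPKM and Kdm3b 2.82 against 2.87. Kdm7a, which removes repressive marks from lysines 9 and 27, had 2.58 against 1.26 FPKM, a plain 2.05-fold.

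Other demethylases lay on both sides of 0. Kdm6a, which opens lysine 27 of histone H3, had 3.17 FPKM in Nutlin-3a and 1.99 in DMSO, and its paralog Kdm6b had 2.24 and 2.36. Kdm1a, the lysine 4 demethylase LSD1 that also acts on p53, had 25.2 against 30.0 FPKM, and Kdm1b had 2.16 against 1.72. Within the Kdm5 group, also specific for lysine 4, Kdm5a had 4.40 against 3.17 FPKM, Kdm5b 3.38 against 3.69 and Kdm5c 1.41 against 1.91. The lysine 36 demethylases Kdm2a and Kdm2b had 7.30 against 8.83 and 8.51 against 8.29. Kdm8 (0.182 against 0.414 FPKM) and Kdm4d (0.0246 against 0.0195) were under the minimum mean.

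Tet genes encode enzymes that oxidise methylated cytosine. Tet3 had 3.22 FPKM in Nutlin-3a and 3.02 in DMSO. Tet2 (0.651 against 0.625 FPKM) and Tet1 (0.0854 against 0.0661) were under the minimum mean.

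Among the readers, the Ing family split by paralog pair. Ing1 and Ing2, whose PHD fingers bring SIN3 deacetylase complexes to methylated lysine 4 and which are known as p53 cofactors, were both above 0. Ing1 had 30.2 FPKM in Nutlin-3a and 16.9 in DMSO, a log2 ratio of 0.80, and Ing2 had 14.4 and 7.95, a log2 ratio of 0.78. Ing4 and Ing5, which serve the HBO1 acetyltransferase complexes, were both below 0. Ing4 had 24.4 against 37.3 FPKM, a log2 ratio of -0.59, and Ing5 1.36 against 2.64, a log2 ratio of -0.63. Ing3, a TIP60 complex subunit, had 2.38 against 2.02 FPKM. These signs held in every other setting in which the gene was compared.

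Bromodomain readers, which bind acetylated lysines, included the genes closest to 0. Brd2, which encodes a BET protein, had 42.3 FPKM in both groups. Brd3, also a BET gene, had 8.83 FPKM in Nutlin-3a and 4.78 in DMSO, a log2 ratio of 0.77. Brd1, a scaffold of acetyltransferase complexes, had 14.0 against 9.10 FPKM. The SWI/SNF subunits Brd7, also known as a p53 cofactor, and Brd9 had 31.1 against 30.5 and 12.3 against 12.3 FPKM. Brd8, of the TIP60 complex, had 4.77 against 5.27.

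Enzymes that act on the same residue were also set side by side. For lysine 4 of histone H3, 5 of 6 methyltransferase genes (Kmt2a to Kmt2d and Setd1a, with Setd1b below 0) lay above 0, and their summed level was 20.6 against 16.1 FPKM. The 5 demethylase genes for that residue (Kdm1a, Kdm1b and Kdm5a to Kdm5c) summed to 36.5 and 40.5 FPKM. For lysine 27, the Ezh genes summed to 34.97 against 30.6 FPKM and the Kdm6 genes to 5.41 against 4.35. The demethylase genes of the Kdm3 and Kdm4 groups for lysine 9 summed to 42.9 FPKM in Nutlin-3a and 31.7 in DMSO. Methyltransferase genes for lysine 9 were not summed, so that residue is shown from the eraser side alone. Kdm7a, which acts on lysines 9 and 27, was left out of the sums. None of these sums differed by 2-fold.

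At the level of transcripts, several genes held transcripts that went apart, some of them with a steady sum. Of 10 members with more than 1 transcript at a mean of at least 1 FPKM, 6 had transcripts on both sides of 0, namely Brd9, Ezh2, Hdac10, Hdac7, Kat5 and Smarca4. Ezh2 had a main transcript at 19.0 FPKM in Nutlin-3a and 25.7 in DMSO and another at 10.9 and 1.26, so that the minor form held 35.1% of the gene's FPKM in Nutlin-3a and 4.67% in DMSO. In Brd9 the order turned, with 5.25 against 8.87 FPKM for one transcript and 7.04 against 3.45 for the other. Smarca4 had 4.16 against 7.28 FPKM for its main transcript and 3.96 against 1.63 for the next, which held 40.2% of the gene in Nutlin-3a and 13.9% in DMSO.

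In Hdac5, Kat2a and Kdm3a the transcripts with a mean of at least 1 FPKM shared a direction and differed in size of ratio. In Hdac5 a transcript went from 7.24 FPKM in DMSO to 1.49 in Nutlin-3a, while the most abundant had 9.54 in DMSO and 6.39 in Nutlin-3a. In Kat2a, where both transcripts had 7.64 FPKM in DMSO, these had 4.99 and 2.68 in Nutlin-3a. Kat5, also named above, and Kdm3a each had a transcript near 0 in DMSO (0.000574 and 0.0187 FPKM) that was listed at 2.23 and 3.13 in Nutlin-3a. The split of reads between transcripts is an estimate of the authors' quantifier, and which exons tell these forms apart was not analysed here.

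**Figure D3:**
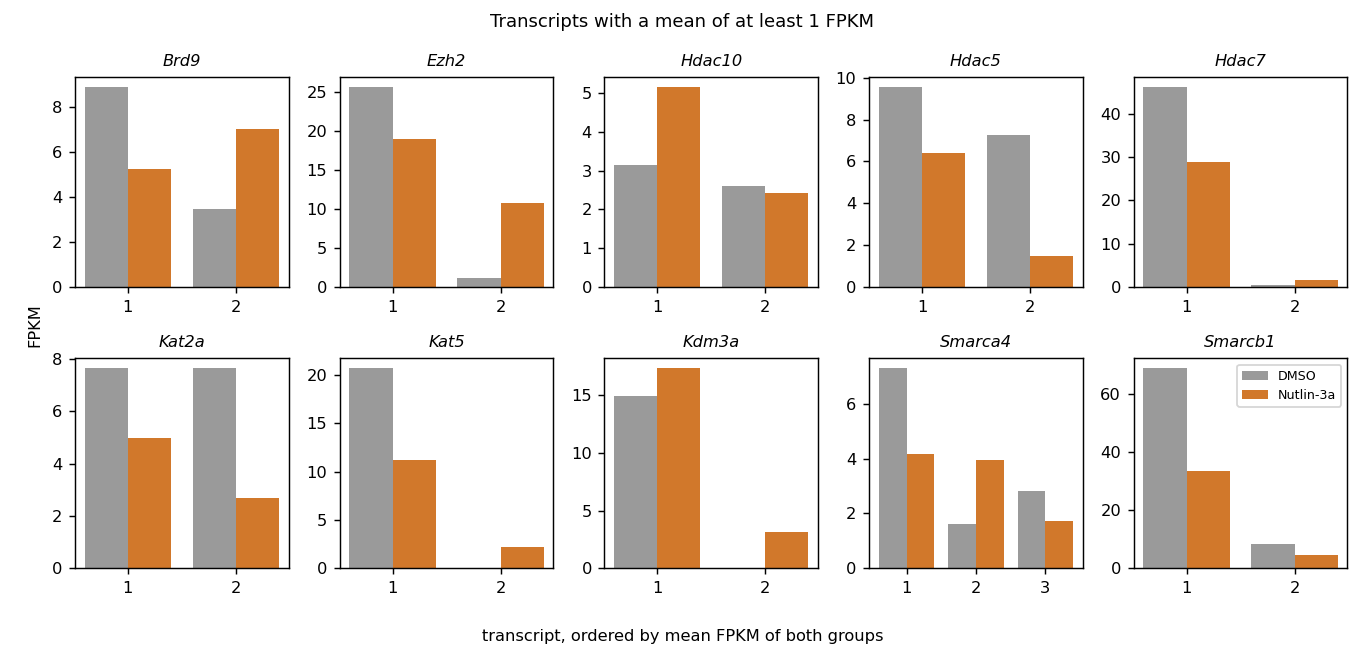
FPKM of single transcripts in DMSO (grey) and Nutlin-3a (orange) for the 10 members with more than 1 transcript at a mean of at least 1 FPKM, numbered by mean level. Bars are the authors' single value per group, each panel has its own axis from 0, and the second transcript of Ezh2 stands at 10.9 against 1.26 FPKM.

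Ratios of the members moved with GC content, as they did over the whole table. Across the 80 members, which are not independent replicates, the Spearman rho of log2 ratio and GC content of the longest GENCODE transcript was -0.33, beside -0.22 over 10266 genes. Genes were also ranked by GC content and divided into 3 equally large classes. The 19 members in the lowest GC class had a median log2 ratio of 0.40 (0.22 for all genes there), the 36 in the middle class -0.11 (0.05) and the 25 in the highest class -0.18 (-0.11). Of the 7 lower members, 4 were in the highest class, namely Chd3, Hdac5, Smarcd3 and Setd6, and 1, Smarca1 with 39.5% GC, was in the lowest. After a correction for the trend on GC content, Chd3, Smarca1 and Smarcb1 were still at least 2-fold lower. Setd4 (-0.95), Smarcd3 (-0.89), Setd6 (-0.88) and Hdac5 (-0.76) then lay inside the limit, and Kdm4b (1.18) lay past it on the higher side. The remodeller median was -0.20 after the correction. Members were also long, with a median of 5012 bases for the longest transcript beside 3240.5 over all genes, and rho with length was 0.19. By role, rho with GC content was -0.33 over 22 writers, -0.52 over 25 erasers, -0.46 over 21 remodellers and 0.24 over 12 readers, so the readers did not share the sign. The Spearman correlation with length was 0.58 over the writers and between -0.17 and 0.18 in the other roles.

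**Figure D4:**
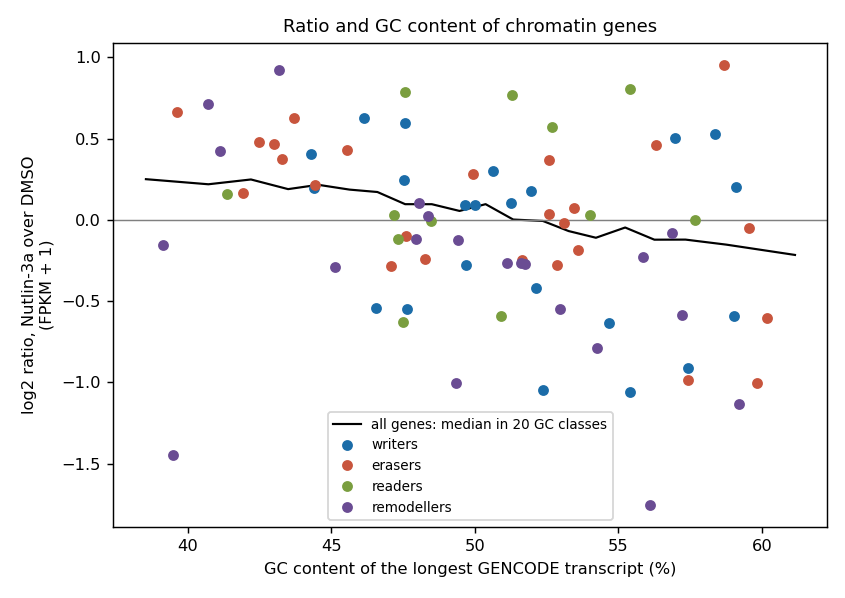
Log2 ratio of Nutlin-3a over DMSO, on the log2(FPKM + 1) scale, against GC content of the longest GENCODE transcript in percent, 1 point per member coloured by role. The black line joins the medians of all genes in 20 classes of GC content and slopes downward; Chd3 lies lowest of the members at -1.75.

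Genes of the same complexes and further chromatin enzymes were taken from 10 lists, none of which repeats a member, and all are called partners here. The lists of other writers (18 genes compared), sirtuins (7) and other remodellers (12) hold further enzymes and were not picked as subunits of these complexes. Of 129 partner genes compared, 7 (5.43%, beside 6.14% of all genes) were at least 2-fold lower and 2 (1.55%, beside 6.62%) higher, with a median log2 ratio of 0.01. The share of lower partners was thus near that of the whole table. NuRD partners had the lowest median, -0.53 over 7 genes, with Rbbp4 and Rbbp7, subunits of both complexes, counted in the Polycomb repressive complex 2 list alone. Counted here as well, a choice made after seeing the data, they bring it to -0.23 over 9 genes, close to the -0.21 of the Kmt2 partners. Among them Mta3 had 6.55 FPKM in Nutlin-3a and 21.3 in DMSO, a 3.24-fold lower value. The methyl-CpG binding gene Mbd3 had 81.5 and 158.3 FPKM, within the limit. Of the 7 NuRD partners 5 lay below 0, while Mta2 (33.3 against 23.9 FPKM) and Gatad2a (13.7 against 9.29) lay above it. Polycomb repressive complex 2 partners had the highest median, 0.42 over 8 genes, and Eed, the subunit that binds methylated lysine 27, was 2.52-fold higher with 44.2 against 17.5 FPKM. Suz12 and Rbbp4 of that complex had 6.40 against 4.47 and 65.2 against 42.9 FPKM.

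The other lists were mixed. Hcfc1, a scaffold of Kmt2 complexes, had 2.56 FPKM in Nutlin-3a and 9.83 in DMSO and was 3.84-fold lower, while the median of its list was -0.21 over 11 genes. Tada3, an adaptor of Kat2a in the SAGA complex, was 3.02-fold lower with 19.9 against 60.1 FPKM, in a list of 20 genes with a median of 0.02. Bcl7c, a SWI/SNF subunit, was 2.20-fold lower with 33.8 against 74.2 FPKM, and its list had a median of 0.04 over 14 genes. In Polycomb repressive complex 1, with a median of -0.13 over 18 genes, Cbx6 had 14.3 against 42.7 FPKM and Pcgf3 4.10 against 1.39. Rcor2, a CoREST subunit, had 3.32 against 9.23 FPKM in a list with a median of 0.31 over 14 genes. Uhrf1, which guides DNA methylation after replication, was the member past the limit among 18 other writers, whose median was -0.17. The 7 sirtuins, NAD-dependent deacetylases, and 12 other remodellers had none past the limit and medians of -0.12 and 0.07.

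**Figure D5:**
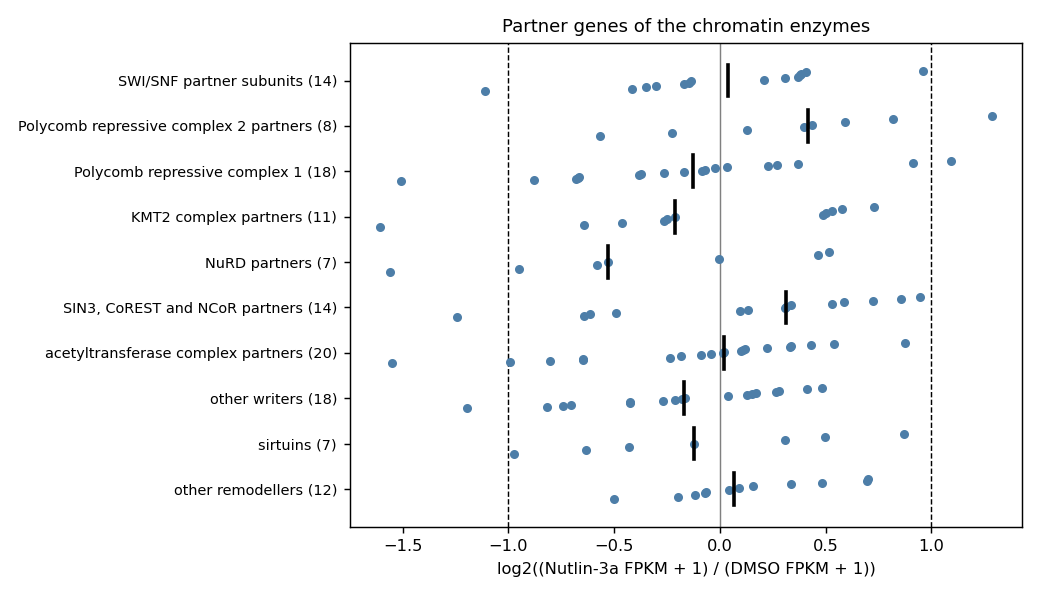
Log2 ratio of Nutlin-3a over DMSO, on the log2(FPKM + 1) scale, for 129 genes in 10 lists of complex partners and further chromatin enzymes, 1 point per gene, with the number compared in brackets. The thick bar is the median of a list and the dashed lines mark 2-fold; NuRD partners, drawn without Rbbp4 and Rbbp7, have a median of -0.53 and Polycomb repressive complex 2 partners one of 0.42.

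The 7 lower members were spread over 6 chromosomes (mm10, whole gene models as listed). Chd3 lies at chr11:69343273-69369426, Hdac5 at chr11:102195747-102230172, Smarca1 at chrX:47809370-47892552 and Smarcd3 at chr5:24592622-24602002. Smarcb1 lies at chr10:75896769-75921614, Setd4 at chr16:93583461-93603815 and Setd6 at chr8:95715913-95719004. The listed model of Smarcd3 overlaps the coding gene Chpf2, so reads of one may count for the other. In all, 15 members had a listed model that overlaps another coding gene. The listed model reached more than 1000 bases past the GENCODE gene in 15 members, and their values are uncertain to that extent. In 6 of them, Brd8, Ing4, Kdm1b, Kdm5a, Kmt2e and Smarca2, it reached more than 20000 bases. Others of the 15 were Kdm7a (18150 bases), Chd2 (16565) and Hdac7 (8299).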

How the data were processed

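RNA of 4 libraries in 2 groups of 2 replicates, Nutlin-3a and DMSO, was extracted with TRIzol, per the labels' protocols. Per the submitters' processing notes, TopHat2 2.0.11 and mouse build mm10 were used. How FPKM was computed and replicates were combined is not given in the sources used here. FPKM deposited by the authors covered 24746 transcripts, 1 value per transcript and group. Per the file headers the columns carry the prefixes NUT and DSM. DSM was read as DMSO because that is the only other group, and every direction rests on this reading. Under it the p53 targets Cdkn1a and Mdm2 went opposite ways. The deposited log2 columns repeated these values (log2 of FPKM, within 0.00714) and were left aside. Starts are printed counted from 1.

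FPKM was summed per symbol, with a pseudocount of 1 on the log2 scale, a minimum mean of 1 FPKM, a value above 0 in each group and a 2-fold limit. All protein-coding members may be named, with full values for those past or just inside the limit and for the most abundant of each family; a few values were picked out after they were seen. Members, lists and subgroups were chosen with earlier results of these data known. No replicate test was possible with 1 value per group, and the planned limma fit, which needs a value per library, was not run. Length and GC content came from GENCODE M21, matched by symbol or synonym for 99.4% of genes compared and all 80 members. For 95 of 103 RefSeq promoters, bases after the start were found in a GENCODE transcript of the gene. Alternatives varied the pseudocount, the filter, the fold limit, the scaling, the transcript taken and a GC correction. Values of 1 member are not reported here. Calls were tested on simulated data with changes and levels above the limits used here, which cannot speak for calls near those limits. Python 3.11.15, pandas 2.3.3 and statsmodels 0.14.6 were used.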

Additional observations from a re-analysis of the deposited data

How the results depend on the processing

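Apart from the 1.5-fold limit, 9 alternatives to the settings of the report were run, and no called member changed sign. Chd3 was at least 2-fold lower under all 9. The count of lower members was 1 with a pseudocount of 5, which left Chd3, and 3 after the GC correction. The count of higher members was 2 with a pseudocount of 0.1 (Chd1 at 1.22 and Kdm4b at 1.08), 1 without a filter on low values (Hdac4) and 1 after the GC correction (Kdm4b). With a 1.5-fold limit 15 members were lower and 10 higher, and 1566 and 1839 of all genes. Over all genes, 249 were higher and 291 lower with a pseudocount of 5, and 391 were higher with a mean of at least 5 FPKM, where fewer genes were compared. A median was counted as moved from 0.1 on the log2 scale, since no replicate spread was available. The remodeller median was -0.13 with a pseudocount of 5, which shrinks the ratio of weakly expressed genes. With a mean of at least 5 FPKM it was -0.41, that of writers was -0.42 and that of all members -0.14; the cause was not tested beyond the smaller set of genes. Smarcb1 lay inside the limit after quantile normalization (-0.96), Hdac5 when its most abundant transcript stood for the gene (-0.51), and Hdac11 lay past it with a pseudocount of 0.1 (-1.50), after centring on all genes (-1.06) and after quantile normalization (-1.13). No paired analysis was possible because the table holds 1 value per group, and leaving out a replicate was not run for the same reason. The depth behind the values is unknown, so no interval is given, and values near 0 are uncertain.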
